A study of Mus musculus with 9 samples.

Results

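Respiratory complex I is the NADH dehydrogenase of the mitochondrial inner membrane, and the nuclear genes for its subunits and for many of its assembly factors carry symbols that start with Nduf. All rows of the deposited count table with such a symbol were taken, which gave 50 rows of 23317. They comprise 7 core subunits, 29 accessory subunits (10 of the matrix arm, 9 of the proximal and 10 of the distal membrane arm), 8 assembly factors (Ndufaf1 to Ndufaf8) and 6 other rows. The other rows are Ndufa4, a protein now assigned to cytochrome c oxidase, its relative Ndufa4l2, and Ndufa12-ps, Ndufb4c, Ndufb11b and Ndufs6b. Of the 50 rows, 47 had enough counts to be tested, among 14227 tested genes in all.

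The libraries were made from bone marrow cells of wild-type mice that the submitters label haematopoietic stem cells (HSCs), the cells from which all blood lineages arise. There were 3 groups with 3 libraries each, from young mice, from old mice, and from old mice with ABC294640, an inhibitor of sphingosine kinase 2, the enzyme that phosphorylates sphingosine. The labels give ages of 2 to 4 and 20 to 24 months, read here as those of the young and of the old groups, so that the treated and untreated old cells share their age range. Each library came from 1500 sorted cells. How the inhibitor was given, at which dose and for how long, and the markers of the sort were not stated in these sources. Nothing in the labels ties the replicates of a group to different animals, so the tests measure the spread between these libraries, which may be technical.

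Complex I takes electrons from NADH through a flavin and a chain of iron-sulfur clusters in its matrix arm, passes them to ubiquinone where the matrix and membrane arms meet, and pumps protons through the membrane arm. The core subunits carry out this chemistry. The core subunits of the matrix arm are encoded in the nucleus and those of the membrane arm (ND1 to ND6 and ND4L) in the mitochondrial genome. Accessory subunits surround and stabilise the core, and assembly factors help to build the complex and are not part of it. HSCs are known for low mitochondrial respiration and reliance on glycolysis compared with their progeny.

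Library totals ran from 16663445 to 23254115 counts. Of 12 HSC markers all were detected, with summed levels of 500 to 508 CPM (counts scaled to library size, with TMM factors) in young, 413 to 416 in old and 418 to 425 in treated old libraries, although Fgd5 and Procr were low, with group means of 0.45 to 1.27 and 2.54 to 3.89 CPM. Markers of other blood cells were present too. The 12 granulocyte and myeloid progenitor markers summed to 33100 to 37200 CPM in young, 51100 to 54300 in old and 50800 to 52000 in treated old libraries. The sums of 10 erythroid markers were 1760 to 1800, 988 to 997 and 1090 to 1100 CPM, and those of 8 megakaryocyte markers 474 to 518, 239 to 268 and 307 to 327 CPM. The sums of 8 B cell markers were 308 to 351, 603 to 695 and 580 to 606 CPM. Among these, Igkc had means of 165, 533 and 470 CPM, while Ighm had 95.7, 60.6 and 59.4 CPM. Of 6 tested B cell markers, 1 was called higher and 2 lower in old than in young HSC, against 19.6% and 19.8% of all genes. The 7 detected T and NK cell markers summed to 1330 to 1490, 1740 to 1900 and 1900 to 2070 CPM. Nearly all of this came from Nkg7, while Cd3e was at most 0.0616 CPM. The Y-linked gene Eif2s3y was at 1.58 to 3.13 CPM in young libraries, 76.0 to 81.4 in old and 72 to 83.5 in treated old libraries, and the effects of age and of sex cannot be told apart in comparisons with young HSC. In bulk libraries a change in the mix of cells and a change of RNA per cell cannot be told apart, and the part of these markers in the results below was not tested.

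Between old and young HSC the Nduf genes moved in both directions and by little. Of 47 tested members, 6 were higher in old HSC (12.8%) and 13 lower (27.7%), at an adjusted p under 0.05 over all genes, while over all genes tested 19.6% were higher and 19.8% lower. The total share called, 40.4%, was close to the 39.4% of all genes. In 18 members (38.3%) the old libraries did not overlap the young ones, against 48.4% of all genes, so such separation was common. The members' log2 fold changes had a median of -0.07 against -0.03 for all genes, and the largest rise among the called members was 21.8% and the largest fall 15.0%. With RLE size factors the counts were 7 higher and 9 lower, against 2994 and 2652 of all 14227 genes. Without old library 2, 0 members were called lower, against 2324 of 14546 genes over all, and 8 were called higher, against 2721. The log2 fold changes of the 13 lower members ran from -0.23 to -0.12 with all libraries and from -0.18 to -0.07 without old library 2, where their adjusted p-values were 0.055 to 0.298. The count of falls was 5 without young library 3, 7 without treated library 1 and 8 without old library 1. Over all genes the falls in these fits were 2204, 2692 and 2269, against 2818 with all libraries. After a trend on GC content and transcript length had been removed, 24 members were called lower and 7 higher, against 3039 and 3077 of all 14227 genes.

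Between treated and untreated old HSC, 5 of 47 Nduf genes were higher (10.6%) and 0 lower, against 0.766% higher and 0.429% lower among all genes tested. The 5 were Ndufa4, Ndufb2, Ndufa1, Ndufc1 and Ndufv3. At an unadjusted p under 0.05, 16 members were higher and 0 lower, and DESeq2 called 7 higher and 0 lower. Over all 14227 genes, 1256 passed that unadjusted p in either direction, and DESeq2 called 138 higher and 70 lower. Of the 47 members 41 had a fold change above 0, with a median log2 value of 0.09 against 0.001 for all genes. In 18 members (38.3%) all treated old libraries lay above all old libraries, and in 1 member, Ndufaf4, all lay below, against 8.34% and 7.13% of all genes. The count of called rises was 0 without treated library 2, and 1 without treated library 1, old library 1 or old library 2; without young library 3 it was 3, and without young library 1 it was 9. Over all genes the called rises also fell in number, from 109 to 17 without treated library 2, 31 without treated library 1, 52 without old library 1 and 40 without old library 2. They numbered 89 without young library 3 and 175 without young library 1.

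Between treated old and young HSC, 8 members were higher (17%) and 2 lower (4.26%), against 19.1% and 18.5% of all genes. Libraries of these 2 groups did not overlap in 16 members (34.0%), against 48.4% of all genes. This comparison shares its treated libraries with the one above and its young libraries with the comparison of old and young HSC, so the values of the 3 comparisons are given side by side and not as independent results. The higher members include Ndufv3, Ndufa9, Ndufaf3, Ndufs1, Ndufv1, Ndufb3 and Ndufa10, and the lower ones were Ndufaf4 and Ndufs3.

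**Figure D1:**
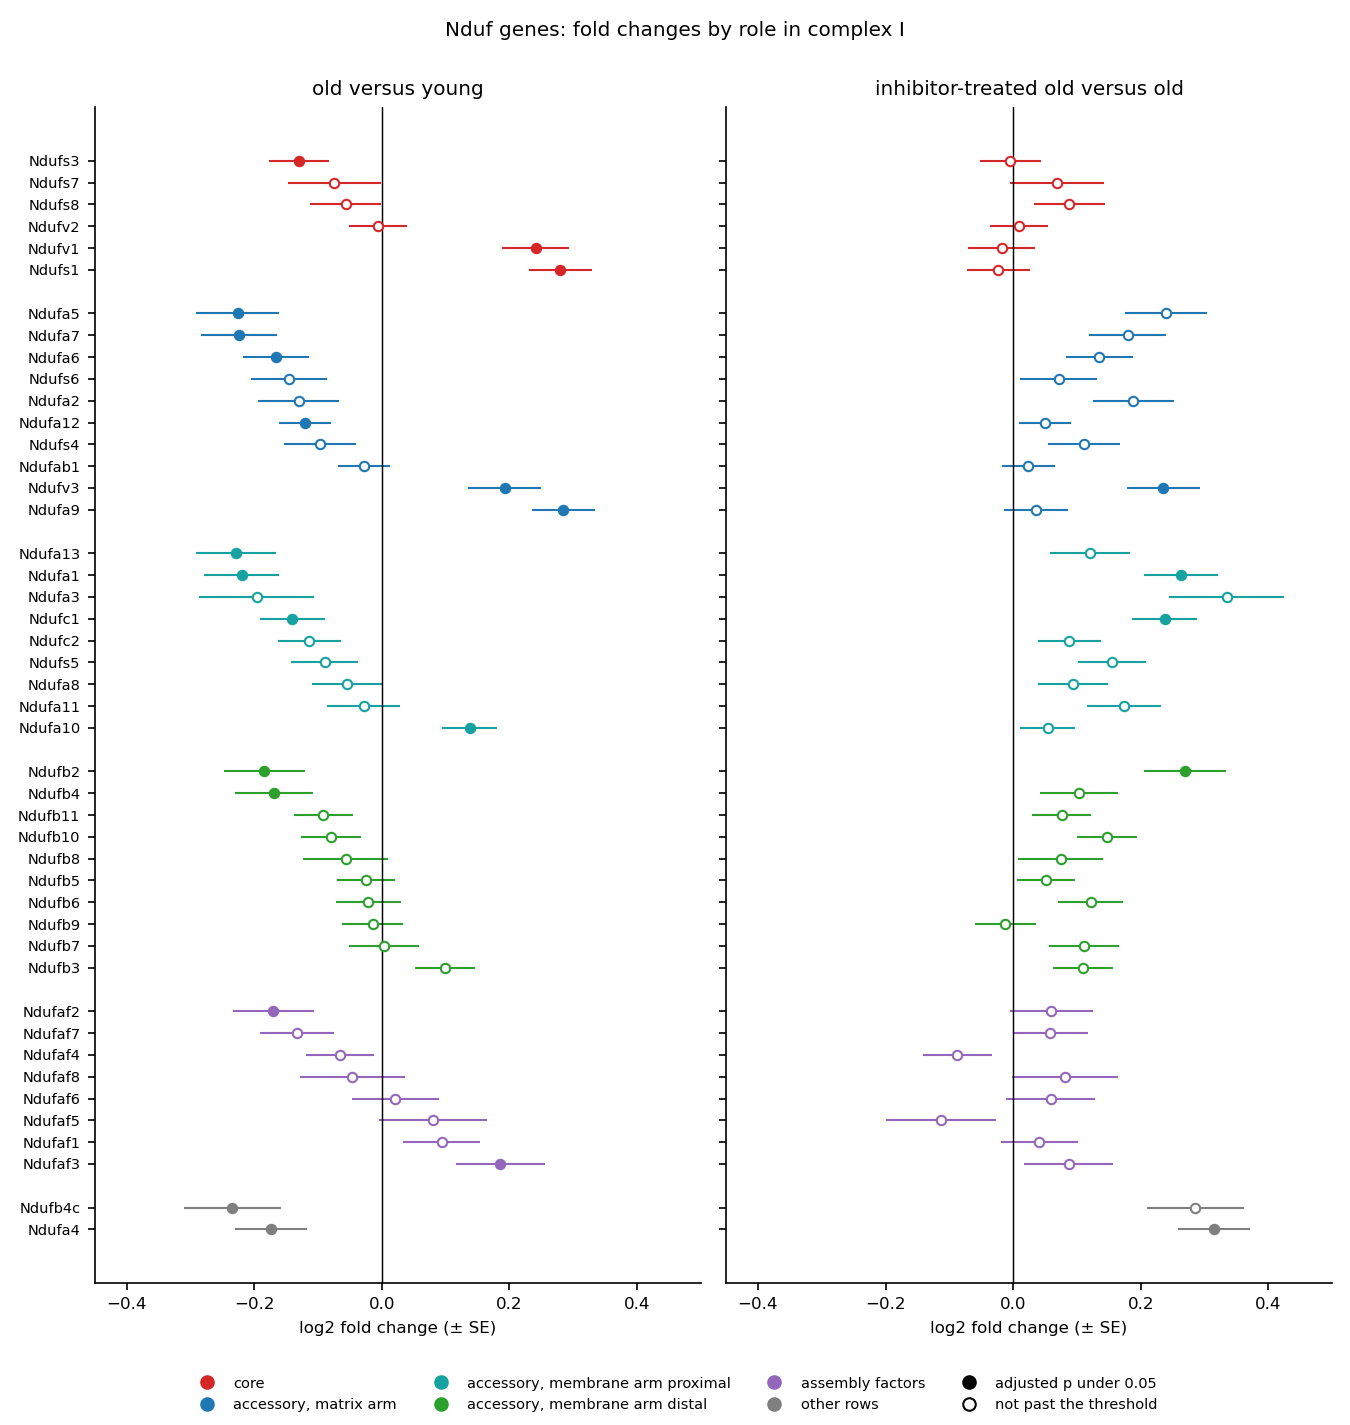
Log2 fold changes (horizontal axis, with the standard error) of tested Nduf genes, 1 gene a line, coloured by role; filled points passed an adjusted p of 0.05. Old against young HSC (left) shows 6 filled points above 0 and 13 below, and treated against untreated old HSC (right) shows 5 filled points, all above 0. Ndufa12-ps, below 1 CPM in every library, is not drawn.

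The share of all counts that fell in Nduf genes was 1.11% ± 0.0407 (SD, n = 3) for young cells, 1.01% ± 0.0452 for old cells and 1.08% ± 0.0296 for treated old cells. The old libraries lay below both other groups, without overlap, at 0.955 to 1.04% against 1.08 to 1.16% in young and 1.05 to 1.11% in treated old libraries. The two-sided exact permutation test gave p = 0.1 for old against young, p = 0.1 for treated against untreated old and p = 0.4 for treated old against young, where 0.1 is the smallest p that 3 against 3 libraries allow. Split by role, the accessory subunits took 0.782% ± 0.0241 of counts in young, 0.703% ± 0.0331 in old and 0.756% ± 0.0195 in treated old HSC. The core subunits took 0.199% ± 0.013, 0.189% ± 0.00578 and 0.191% ± 0.00456, with libraries that overlapped in all 3 comparisons (exact permutation p = 0.5, 0.8 and 0.5 for old against young, treated against untreated old, and treated old against young). On TMM-scaled library sizes the difference between old and young shrank from -0.106 to -0.0441 percentage points, with an exact permutation p of 0.5.

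With age, 2 of 3 core subunits at the NADH-binding end of the complex rose, while 19.6% of all genes tested were higher. Ndufs1 (ENSMUSG00000025968, chr1:63143596-63176833, minus strand), which holds iron-sulfur clusters at the start of the electron chain, was at 88.4, 90.2 and 86.7 CPM in the young libraries, 105, 112 and 104 in the old and 102, 105 and 110 in the treated old libraries. All 6 libraries of old mice lay above all 3 of young mice. The log2 fold change was 0.28 ± 0.05 (SE) for old against young (adjusted p = 0.000151) and 0.26 ± 0.05 for treated old against young (adjusted p = 0.000402), while treated and untreated old HSC differed by -0.02 ± 0.05 (adjusted p = 0.954). Exons of Ndufs1 overlap those of Eef1b2 and Ino80dos on the opposite strand, with 7.5% of its 31-base words shared.

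Ndufv1 (ENSMUSG00000037916, chr19:4007384-4012806, minus strand), which binds NADH and the flavin, was at 196, 172 and 178 CPM in young, 228, 207 and 211 in old and 208, 217 and 213 in treated old libraries. Again the old libraries did not overlap the young ones. It rose by 18.2% in old HSC (log2 0.24 ± 0.05, adjusted p = 0.00114) and was 16.7% higher in treated old than in young HSC (log2 0.22 ± 0.05, adjusted p = 0.00236). Ndufv2, the third core subunit at that end, did not pass, with 513, 469 and 491 CPM in young, 486, 470 and 511 in old and 487, 506 and 484 in treated old libraries. Its log2 fold change was -0.01 ± 0.05 for old against young (adjusted p = 0.934). The calls of Ndufs1 and Ndufv1 against young HSC were kept in all 9 fits that left out 1 library, with log2 values of 0.26 to 0.32 and 0.2 to 0.31 for old against young.

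Ndufs3, a scaffold subunit at the base of the matrix arm, was at 222, 198 and 204 CPM in young, 190, 190 and 190 in old and 186, 192 and 191 in treated old libraries. It fell by 0.13 ± 0.05 on the log2 scale in old HSC (adjusted p = 0.0351) and was lower by the same amount in treated old HSC (log2 -0.13 ± 0.05, adjusted p = 0.0312). The call for old HSC was kept in 1 of 9 fits that left out 1 library (without young library 2), with log2 values of -0.15 to -0.07. It was lost with DESeq2, RLE size factors, no filter on low counts and the 2 groups fitted alone (adjusted p = 0.06 to 0.224). The call for treated old against young HSC was kept in 3 of 9 (young library 2 or 3 or old library 2 left out), at log2 -0.16 to -0.08, and was lost with no filter (adjusted p = 0.209). Of the 31-base words of Ndufs3 55.0% occur in other genes' transcripts, so its counts are uncertain.

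Ndufs7, which carries the last iron-sulfur cluster before ubiquinone, had the largest SD among young libraries of the core subunits described here. It was at 425, 335 and 339 CPM in young, 373, 318 and 354 in old and 361, 385 and 350 in treated old libraries. Ndufs8, another iron-sulfur subunit, was at 451, 395 and 399, then 424, 368 and 405, then 425, 438 and 410 CPM. Neither passed the threshold, with log2 fold changes of -0.07 ± 0.07 and -0.06 ± 0.06 for old against young and adjusted p-values of 0.441 and 0.444. Between treated and untreated old HSC, 0 of 7 core subunits passed by edgeR or DESeq2, against 1.19% of all genes by edgeR. At an unadjusted p under 0.05, 0 of the 7 passed, against 1256 of all 14227 genes. Their log2 fold changes ran from -0.02 to 0.09.

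**Figure D2:**
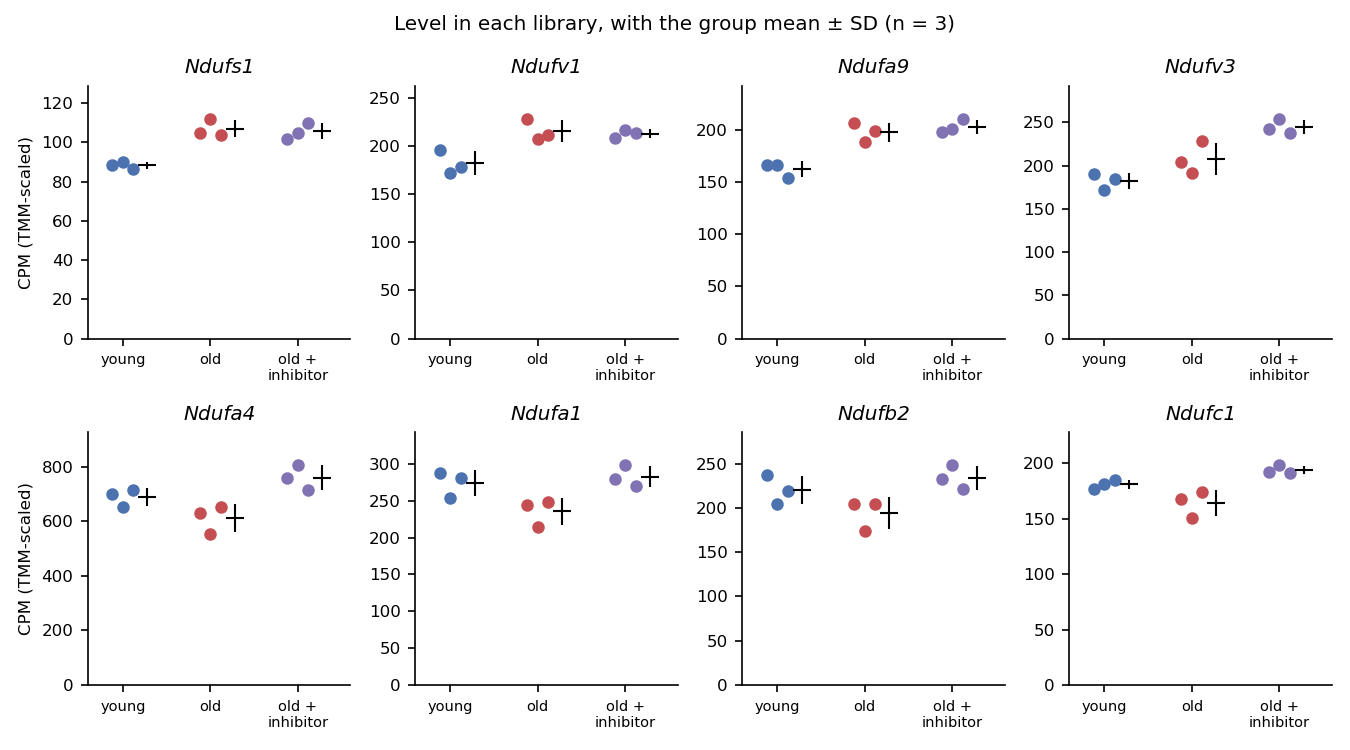
Level of 8 Nduf genes in every library (points, vertical axis in CPM from 0) with the group mean and SD (n = 3). In the upper row young libraries are the lowest for Ndufs1, Ndufv1, Ndufa9 and Ndufv3; in the lower row old libraries are the lowest for Ndufa4, Ndufa1, Ndufb2 and Ndufc1, with old library 2 the lowest of all 9.

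Among the 10 accessory subunits of the matrix arm, 2 rose (20.0%) and 4 fell (40.0%) with age, against 19.6% and 19.8% of all genes. Ndufa9 (ENSMUSG00000000399, chr6:126821721-126849136, minus strand), which binds a nucleotide cofactor beside the ubiquinone site, was at 167, 167 and 154 CPM in young, 207, 189 and 199 in old and 198, 201 and 211 in treated old libraries. Every library of old mice exceeded every young one. It rose by 21.8% in old HSC (log2 0.28 ± 0.05, adjusted p = 0.000128) and was 24.9% higher in treated old than in young HSC (log2 0.32 ± 0.05), and both calls were kept without any 1 library. Treated and untreated old HSC differed by 0.04 ± 0.05 (adjusted p = 0.919).

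Ndufv3 (ENSMUSG00000024038, chr17:31520115-31531331, plus strand), a small subunit beside the NADH-binding core, was the 1 member called higher in all 3 comparisons. Its levels were 190, 172 and 184 CPM in young, 204, 192 and 228 in old and 242, 254 and 238 in treated old libraries, 3 groups with no overlap. It rose by 14.3% in old HSC (log2 0.19 ± 0.06, adjusted p = 0.0109), a call lost without old library 3, and by a further 17.7% in treated old HSC (log2 0.24 ± 0.06, adjusted p = 0.0438). Treated old HSC exceeded young HSC by 34.6% (log2 0.43 ± 0.06), which was kept without any 1 library, at log2 0.4 to 0.46. The rise with the inhibitor was kept in 3 of 9 fits, those without young library 1, young library 2 or old library 3, with log2 values of 0.18 to 0.3 over the 9. It was lost with RLE size factors and with a stricter filter of 5 CPM in 3 libraries (adjusted p = 0.0502 and 0.0542). No 31-base word of Ndufv3 is shared with another gene.

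The 4 falls of the matrix arm were in Ndufa5, Ndufa7, Ndufa6 and Ndufa12. Ndufa5 was at 153, 169 and 177 CPM in young, 132, 137 and 159 in old and 161, 169 and 175 in treated old libraries, a fall of 14.5% with age (log2 -0.23 ± 0.06, adjusted p = 0.00871) although the highest old library exceeded the lowest young one. Ndufa7 was at 299, 266 and 275, then 255, 216 and 249, then 276, 284 and 255 CPM, a fall of 14.4% (log2 -0.22 ± 0.06, adjusted p = 0.00582) with no overlap. Ndufa6, which binds the mitochondrial acyl carrier protein, was at 275, 255 and 258, then 250, 214 and 238, then 257, 255 and 259 CPM, a fall of 10.9% (adjusted p = 0.0153).

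Ndufa12, a subunit related to the assembly factor Ndufaf2, fell by 8.02% (adjusted p = 0.0234), from 432 ± 3.33 to 398 ± 13.6 CPM (SD, n = 3). In treated old HSC these 4 had log2 fold changes against old HSC of 0.24 (Ndufa5), 0.18 (Ndufa7), 0.14 (Ndufa6) and 0.05 (Ndufa12), with adjusted p-values of 0.0881 to 0.823. The falls of Ndufa5, Ndufa6, Ndufa7 and Ndufa12 were each lost without old library 2. Other single libraries also ended calls, which were young library 3 and old library 1 for Ndufa5 and Ndufa12, young library 1 for Ndufa6, and young library 2 and treated libraries 1 and 2 for Ndufa12. With no filter on low counts the calls of Ndufa6 and Ndufa12 were lost (adjusted p = 0.0509 and 0.233), and that of Ndufa12 also with the 2 groups fitted alone (adjusted p = 0.0693). Over the fits that left out 1 library, the log2 values were -0.29 to -0.17, -0.21 to -0.09, -0.26 to -0.14 and -0.12 to -0.09 in the same order.

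The remaining matrix arm subunits, Ndufa2, Ndufab1, Ndufs4 and Ndufs6, passed in no comparison. Their log2 fold changes were -0.15 to -0.03 for old against young and 0.02 to 0.19 for treated against untreated old HSC. Ndufab1 is the acyl carrier protein itself, and 38.2% of its 31-base words are shared with other transcripts.

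Of the 9 accessory subunits of the proximal membrane arm, 1 rose (11.1%) and 3 fell (33.3%) with age, against 19.6% and 19.8% of all genes. With the inhibitor 2 of them rose (22.2%, against 0.766% of all genes). Ndufa1 (ENSMUSG00000016427, chrX:37187588-37191163, minus strand), a small X-linked subunit with a single membrane helix, was at 288, 254 and 281 CPM in young, 244, 215 and 249 in old and 280, 298 and 270 in treated old libraries. All old libraries lay below all libraries of the other groups. It fell by 14.1% with age (log2 -0.22 ± 0.06, adjusted p = 0.00553), a call lost without old library 2 (log2 -0.14). It rose by 20.0% with the inhibitor (log2 0.26 ± 0.06, adjusted p = 0.0272), a call lost without old library 1 or 2 or treated library 1 or 2, with log2 values of 0.2 to 0.3. Treated old and young HSC differed by 0.04 ± 0.06 (adjusted p = 0.589). With the GC and length trend removed, Ndufa1 was called lower in treated old than in young HSC (log2 -0.28, adjusted p = 3.54e-06), its fall with age was log2 -0.39, and its rise with the inhibitor was not called (log2 0.11, adjusted p = 0.259).

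Ndufc1 (ENSMUSG00000037152, chr3:51404677-51408988, minus strand), a small membrane subunit, was at 177, 181 and 185 CPM in young, 168, 151 and 174 in old and 192, 198 and 191 in treated old libraries, again 3 groups with no overlap, in the order old, young, treated old. It fell by 9.30% with age (log2 -0.14 ± 0.05, adjusted p = 0.0333) and rose by 17.9% with the inhibitor (log2 0.24 ± 0.05, adjusted p = 0.0210). The fall was kept in 3 of 9 fits without 1 library (young library 1, old library 3 or treated library 3 left out), and the rise in 4 of 9 (a young library or old library 3 left out), with log2 values of -0.16 to -0.07 and 0.18 to 0.28. The fall was also lost with DESeq2, RLE size factors, no filter and the 2 groups fitted alone (adjusted p = 0.0564 to 0.166).

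Ndufa13, a subunit also known as GRIM-19, was at 243, 216 and 214 CPM in young, 197, 171 and 208 in old and 210, 215 and 201 in treated old libraries. Its fall of 14.7% with age (log2 -0.23 ± 0.06, adjusted p = 0.00656) was lost without old library 2 (log2 -0.14). Its exons overlap Tssk6 on the opposite strand, with 33.2% of its words shared. Ndufa10, a relative of nucleoside kinases, went the other way, with 283, 273 and 274 CPM in young, 302, 295 and 317 in old and 313, 323 and 312 in treated old libraries. Its rise of 10.0% with age (log2 0.14 ± 0.04, adjusted p = 0.0154) and its excess of 14.2% in treated old over young HSC (adjusted p = 0.00154) were kept without any 1 library, and the first was lost with the stricter filter (adjusted p = 0.0779).

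Ndufa3, Ndufa8, Ndufa11, Ndufc2 and Ndufs5 of the proximal membrane arm passed in no comparison, with log2 fold changes of -0.20 to -0.03 for old against young and 0.09 to 0.33 for treated against untreated old HSC. The largest fitted change with the inhibitor among all subunits was that of Ndufa3, which did not pass. Its levels were 296, 229 and 239 CPM in young, 231, 193 and 243 in old and 277, 315 and 250 in treated old libraries, and its log2 fold change was 0.33 ± 0.09 with an adjusted p of 0.0885.

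In the distal membrane arm, where the Ndufb proteins surround the far proton pumps, 2 of 10 subunits fell (20.0%) and 0 rose with age. Of all genes 19.8% fell and 19.6% rose. With the inhibitor 1 of the 10 rose (10.0%, against 0.766% of all genes). Ndufb2 (ENSMUSG00000002416, chr6:39592574-39603382, plus strand) was at 237, 205 and 219 CPM in young, 204, 174 and 205 in old and 233, 248 and 221 in treated old libraries. Its fall of 12.0% with age (log2 -0.18 ± 0.06, adjusted p = 0.0266) was lost without young library 1 or 3, old library 2 or treated library 1, and its rise of 20.5% with the inhibitor (log2 0.27 ± 0.06, adjusted p = 0.0398) was lost without young library 3, old library 1 or 2, or treated library 1 or 2. The log2 values ran from -0.22 to -0.09 and from 0.19 to 0.31. The rise was also lost with the stricter filter (adjusted p = 0.0517) and with the GC and length trend removed (log2 0.11, adjusted p = 0.145). Exons of Ndufb2 overlap Braf on the opposite strand and 45.4% of its words are shared, so its counts are uncertain.

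Ndufb4 was at 71.2, 78.1 and 75.2 CPM in young, 67.3, 62.9 and 69.5 in old and 66.6, 77.2 and 70.7 in treated old libraries. Its fall of 11.0% with age (adjusted p = 0.0322) was kept in 3 of 9 fits without 1 library (young library 1 or treated library 2 or 3 left out), at log2 -0.20 to -0.11, and was lost with DESeq2, RLE size factors and no filter (adjusted p = 0.0531 to 0.121). Ndufb3 was at 163, 162 and 167 CPM in young, 182, 165 and 179 in old and 189, 191 and 187 in treated old libraries. It was higher by 15.6% in treated old than in young HSC (log2 0.21 ± 0.05, adjusted p = 0.00148), a call kept without any 1 library, while neither of its other comparisons passed. Ndufb5, Ndufb6, Ndufb7, Ndufb8, Ndufb9, Ndufb10 and Ndufb11 passed in no comparison, with log2 fold changes of -0.09 to 0.003 for old against young and -0.01 to 0.15 for treated against untreated old HSC.

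The assembly factors were mostly present at lower levels than the subunits. Of 8, 1 was higher (12.5%) and 1 lower (12.5%) in old than in young HSC, against 19.6% and 19.8% of all genes. Ndufaf3, which works with Ndufaf4 on the ubiquinone-binding module, was at 68.4, 59.1 and 60.7 CPM in young, 76.8, 63.5 and 74.4 in old and 75.5, 79.2 and 73.1 in treated old libraries. It was higher by 13.7% in old (log2 0.19 ± 0.07, adjusted p = 0.0394) and by 20.8% in treated old HSC (log2 0.27 ± 0.07, adjusted p = 0.0041) than in young HSC. The first call was lost without young library 2 or 3 or old library 1 or 3 (log2 0.14 to 0.28) and with the stricter filter (adjusted p = 0.108), and the second was kept without any 1 library. Its partner Ndufaf4 moved the other way, with 80.8, 87.8 and 88.5 CPM in young, 81.8, 81.5 and 82.2 in old and 75.2, 74.5 and 81.3 in treated old libraries. It was lower by 0.15 ± 0.05 on the log2 scale in treated old than in young HSC (adjusted p = 0.0285), a call lost without young library 2 or 3, old library 3 or treated library 1 or 2 (log2 -0.19 to -0.12) and with DESeq2 or no filter (adjusted p = 0.0564 and 0.182).

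Ndufaf2, which acts late when the NADH-binding module is added, was at 47, 54.4 and 51.2 CPM in young, 43.8, 43.7 and 48.2 in old and 46.5, 47.4 and 47.4 in treated old libraries. Its fall of 11.1% with age (log2 -0.17 ± 0.06, adjusted p = 0.0404) was kept in 2 of 9 fits without 1 library (young library 1 or old library 3 left out), at log2 -0.22 to -0.11. It was lost with DESeq2, RLE size factors, no filter, the 2 groups fitted alone and mitochondrial genome genes left out (adjusted p = 0.0521 to 0.167). The other 5 passed in no comparison. Ndufaf1, a factor for the membrane arm, had means of 40.7, 43.5 and 44.7 CPM in young, old and treated old HSC. Ndufaf5, which hydroxylates Ndufs7, had 23.8, 25.1 and 23.2 CPM, and its partner Ndufaf8 had 84.3, 81.9 and 86.6 CPM.

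Ndufaf6, which acts early on the membrane arm, had means of 53.0, 53.9 and 56.1 CPM in young, old and treated old HSC. Ndufaf7, a methyltransferase, had means of 42.9 ± 0.593, 39.1 ± 0.559 and 40.7 ± 0.902 CPM (SD, n = 3). Its libraries did not overlap between any 2 groups, yet its change with age missed the threshold at log2 -0.13 ± 0.06 and an adjusted p of 0.0738. With the inhibitor 0 of 8 assembly factors passed by edgeR or DESeq2, against 1.19% of all genes by edgeR. At an unadjusted p under 0.05, 0 of the 8 passed, against 1256 of all 14227 genes. The log2 fold changes of the 8 ran from -0.11 to 0.09.

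Of the other rows, Ndufa4 (ENSMUSG00000029632, chr6:11900292-11907497, minus strand) had the smallest adjusted p for the inhibitor of all Nduf genes. Its levels were 700, 652 and 715 CPM in young, 629, 553 and 651 in old and 760, 805 and 715 in treated old libraries. Old libraries lay below young ones and treated old libraries above or level with the highest young one, without overlap on unrounded values. It fell by 11.3% with age (log2 -0.17 ± 0.06, adjusted p = 0.0193), a call lost without young library 3 or old library 2 (log2 -0.20 to -0.09). It rose by 24.4% with the inhibitor (log2 0.31 ± 0.06, adjusted p = 0.00516), a call lost only without treated library 2 (log2 0.25 to 0.36 over the 9 fits).

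Ndufb4c, annotated as a processed pseudogene of Ndufb4, had 145, 126 and 134 CPM in young, 120, 98.6 and 127 in old and 138, 152 and 131 in treated old libraries, and fell by 15.0% with age (log2 -0.23 ± 0.08, adjusted p = 0.0183; lost without young library 1 or old library 2, at log2 -0.29 to -0.12). Since 100% of its 31-base words occur in other transcripts, those of Ndufb4 among them, its reads and those of Ndufb4 cannot be told apart. Ndufa12-ps, a processed pseudogene sharing 84.9% of its words with other transcripts, was below 1 CPM in every library and passed in no comparison. Ndufa4l2 had 0 counts in all 9 libraries, and Ndufb11b and Ndufs6b were at or below 0.205 CPM, so these 3 were not tested.

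Per kilobase of transcript, which allows levels of different genes to be compared, accessory subunits were the most abundant and assembly factors the least. In young HSC the median was 323 CPM per kb over 29 accessory subunits, 199 over 7 core subunits and 35.1 over 8 assembly factors. Ndufb8 led with 775 CPM per kb ± 90.5 (SD, n = 3), ahead of Ndufa2 with 665 ± 29.7 and Ndufa1 with 654 ± 42.1. Ndufa2 and Ndufa1 lay within each other's spread, while Ndufb8 lay above both. The core subunits ran from 483 CPM per kb for Ndufs7 to 34.1 for Ndufs1, so that Ndufs1 was the 40th of 44 in the order. Ndufb8 and Ndufa2 were first and second in all 3 groups, and Ndufaf5 was the lowest in all 3, at 20.4, 21.5 and 19.9 CPM per kb. These levels rest on 1 annotated transcript for each gene.

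**Figure D3:**
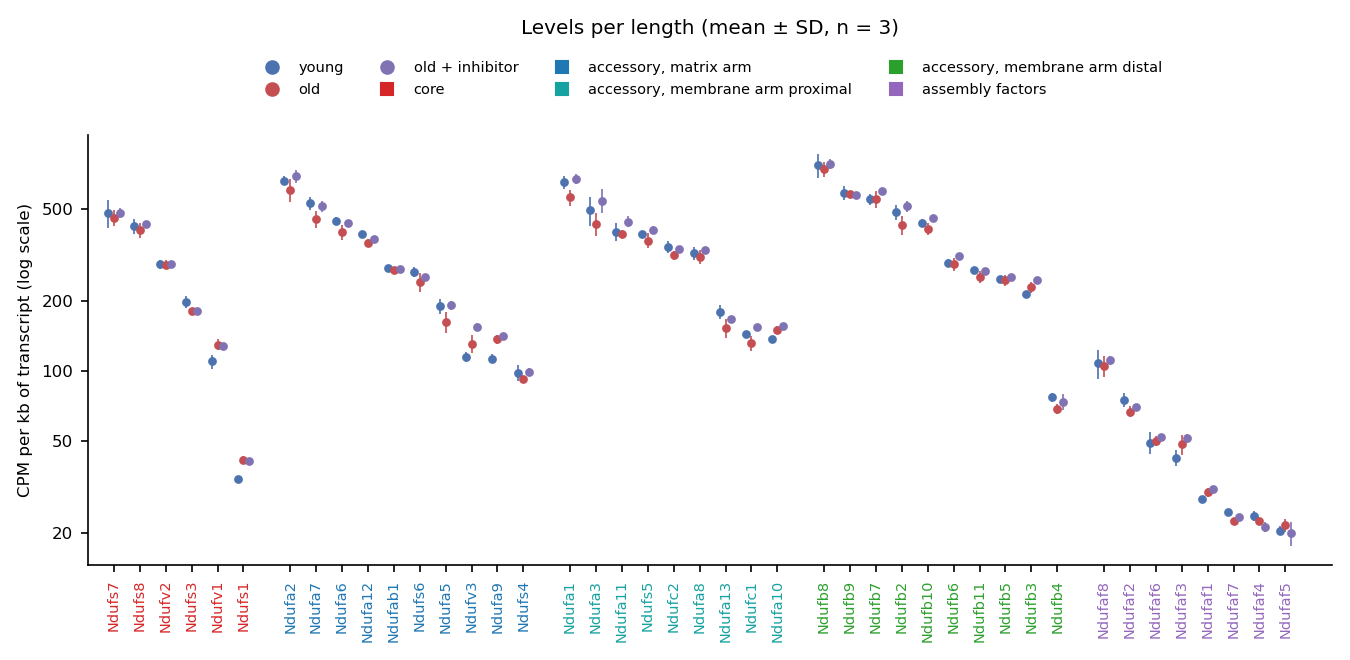
Levels per kilobase of transcript (vertical log axis, mean with SD, n = 3) of subunits and assembly factors in young, old and treated old HSC, ordered within each role by the level in young HSC. Assembly factors lie at 19.9 to 111 CPM per kb and most accessory subunits above 100, and the 3 groups of 1 gene lie close together compared with the differences between genes.

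Among the members the direction of change varied with transcript length. Over 44 subunits and assembly factors, the log2 fold change of old against young HSC had a Pearson r of 0.557 with log2 transcript length, and that of treated against untreated old HSC had r = -0.592. These are descriptions over genes of the same libraries, and the old libraries enter both values. Over 14221 tested genes the same values were -0.188 and -0.0232. All 6 members called higher in old HSC had transcripts at or above the members' median of 939.5 bases, and 6 of the 11 subunits and assembly factors called lower had shorter ones.

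Library composition moved with these values. Genes with transcripts shorter than 939.5 bases took 23.1 to 23.7% of counts in young, 20.3 to 21.6% in old and 22.1 to 22.7% in treated old libraries, with old library 2 the lowest. Over all genes, 6.48% of those shorter genes were higher with the inhibitor, against 0.304% of the longer ones. With age, 30.3% of those shorter genes were lower and 17.2% higher, against 19.0% and 19.8% of the longer ones. Of the shorter subunits and assembly factors 27.3% were lower and 0% higher with age, and of the longer ones 22.7% and 27.3%. With the GC and length trend removed, 3 of the 5 rises with the inhibitor (Ndufa4, Ndufc1 and Ndufv3, log2 0.24, 0.25 and 0.23) were still called, and those of Ndufa1 and Ndufb2 were not. In that fit treated old against young HSC had 8 members higher and 15 lower, against 3118 and 2932 of all 14227 genes. The part of length in the results without that correction was not tested further.

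**Figure D4:**
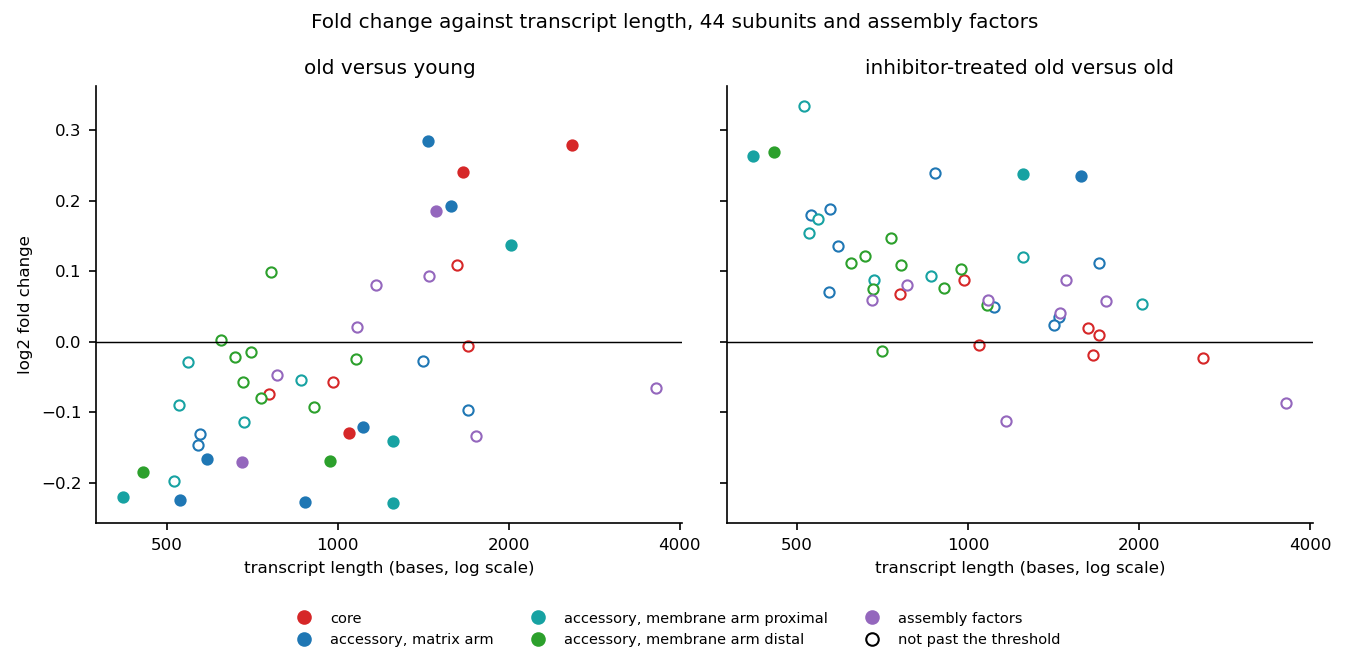
Log2 fold change (vertical axis) against transcript length in bases (horizontal log axis) of 44 subunits and assembly factors, coloured by role, filled where the adjusted p was under 0.05. Old against young HSC (left, r = 0.557) shows the rises at long transcripts, and treated against untreated old HSC (right, r = -0.592) shows the largest rises at short ones.

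The promoters show what some members share apart from their expression. Windows of 250 bases before to 50 bases after the transcript start (RefSeq, build GRCm38.p6) were at hand for 40 members, 42 windows in all, and were searched on both strands for GCATGCGC (NRF1), CCGGAAGT (ETS family), AAGATGGCG (YY1) and AAGGTCA (ERR), letters bound by factors known for control of respiratory genes. AAGATGGCG was in 6 windows (14.3%, against 1.40% of 32851 windows of all genes), and GCATGCGC in 5 (11.9% against 2.71%). AAGGTCA was in 3 (7.14% against 4.72%) and CCGGAAGT in 1 (2.38% against 3.89%). These matches are descriptions, not shown sites.

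The 6 stretches with AAGATGGCG are printed because the match lay in the same strand as the gene and just after the transcript start, from 10 to 35 bases downstream, in all of them. The match contains the letters ATG, and whether these are the start codon of the protein was not tested. Capitals mark the match, and each stretch runs 5′ to 3′ along the gene.
Ndufa9, chr6:126849095-126849131, minus strand: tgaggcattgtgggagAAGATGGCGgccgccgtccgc
Ndufaf8, chr11:120098928-120098968, plus strand: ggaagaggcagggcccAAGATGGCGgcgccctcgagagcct
Ndufc1, chr3:51408909-51408949, minus strand: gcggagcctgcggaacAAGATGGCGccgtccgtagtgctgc
Ndufs4, chr13:114388045-114388075, minus strand: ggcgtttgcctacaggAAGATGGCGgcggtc
Ndufs6, chr13:73328433-73328465, minus strand: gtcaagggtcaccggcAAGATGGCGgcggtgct
Ndufs7, chr10:80249457-80249497, plus strand: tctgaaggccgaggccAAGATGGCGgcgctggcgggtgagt

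The holders of AAGATGGCG did not move alike, since Ndufa9 rose with age, Ndufc1 fell with age and rose with the inhibitor, and Ndufaf8, Ndufs4, Ndufs6 and Ndufs7 passed in no comparison. The GCATGCGC windows were those of Ndufa6, Ndufa8, Ndufa11, Ndufaf4 and Ndufaf5. In Ndufa11, Ndufaf4 and Ndufaf5 the letters read on both strands at overlapping positions. Ndufaf4 holds a further, separate match on the opposite strand, at position 1 from the transcript start. Only 1 match of each gene is shown here, in capitals.
Ndufa6, chr15:82354351-82354390, minus strand: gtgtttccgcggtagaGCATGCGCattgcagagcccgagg
Ndufa8, chr2:36049323-36049362, minus strand: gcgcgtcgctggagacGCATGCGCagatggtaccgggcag
Ndufa11, chr17:56717688-56717727, plus strand: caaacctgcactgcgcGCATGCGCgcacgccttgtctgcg
Ndufaf4, chr4:24897956-24897995, plus strand: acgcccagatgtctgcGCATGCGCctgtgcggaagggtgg
Ndufaf5, chr2:140170648-140170687, plus strand: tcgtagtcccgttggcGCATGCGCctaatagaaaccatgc

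Of these 5 genes, Ndufa6 fell with age, Ndufaf4 was lower in treated old than in young HSC, and Ndufa8, Ndufa11 and Ndufaf5 passed in no comparison. The whole windows of the members that rose with the inhibitor differ in their matches. They are printed for Ndufa4, with no match to the 4 motifs, and for Ndufb2, with the letters AAGGTCA in capitals; the windows of Ndufa1 and Ndufv3 hold no match either.
Ndufa4, chr6:11907401-11907700, minus strand: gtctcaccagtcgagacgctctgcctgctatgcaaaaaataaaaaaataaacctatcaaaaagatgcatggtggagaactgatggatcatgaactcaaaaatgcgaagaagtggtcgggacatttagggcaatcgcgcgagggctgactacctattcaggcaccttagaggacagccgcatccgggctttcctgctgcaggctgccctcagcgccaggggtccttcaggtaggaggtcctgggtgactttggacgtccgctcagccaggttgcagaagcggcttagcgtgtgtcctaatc
Ndufb2, chr6:39592315-39592614, plus strand: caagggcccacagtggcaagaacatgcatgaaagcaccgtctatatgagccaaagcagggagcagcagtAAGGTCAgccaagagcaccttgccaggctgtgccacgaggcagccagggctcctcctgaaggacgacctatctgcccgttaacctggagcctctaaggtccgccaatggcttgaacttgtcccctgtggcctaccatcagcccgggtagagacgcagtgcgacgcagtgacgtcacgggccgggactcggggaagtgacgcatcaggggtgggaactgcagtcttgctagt

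The mitochondrially encoded core subunits of complex I were described from their own rows. Of 7, ND4 and ND2 were lower in old HSC (28.6%, against 19.8% of all genes), ND4 at 1320 ± 94.2 CPM in young and 1170 ± 38.7 in old HSC (log2 -0.17 ± 0.05, adjusted p = 0.00657) and ND2 at 496 ± 42.1 and 446 ± 32.2 CPM (log2 -0.15 ± 0.06, adjusted p = 0.0452). DESeq2 called 1 of the 7 lower. With the inhibitor 1 of 7 rose (14.3%, against 0.766% of all genes). This was ND4L, from 146 ± 13.9 to 175 ± 7.43 CPM (log2 0.25 ± 0.06, adjusted p = 0.0334). The other 6 were not called, with log2 values of -0.03 (ND5) to 0.07 (ND1). For these 7 genes the part of transcript length and of single libraries was not tested. The 7 together took 0.716% ± 0.0446 of counts in young, 0.643% ± 0.0202 in old and 0.658% ± 0.0127 in treated old HSC (two-sided exact permutation p = 0.2 for old against young and 0.3 for treated against untreated old).

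Assembly factors without an Nduf symbol numbered 15, of which 2 rose (13.3%) and 3 fell (20.0%) with age, against 19.6% and 19.8% of all genes. Aifm1, which imports subunits with its partner Chchd4, was higher in old HSC at log2 0.27 ± 0.06 (adjusted p = 0.000924), and Chchd4 at 0.16 ± 0.05 (adjusted p = 0.0126). Nubpl, which delivers iron-sulfur clusters to the complex, was lower at log2 -0.33 ± 0.09 (adjusted p = 0.00478), as was Dmac1, a factor for the membrane arm, at -0.18 ± 0.06 (adjusted p = 0.0181). With the inhibitor 0 of 15 passed by edgeR or DESeq2, against 1.19% of all genes by edgeR. At an unadjusted p under 0.05, 3 were higher and 0 lower. Treated old HSC differed from young HSC in 3 of them (20.0%, against 37.6% of all genes). Aifm1 at log2 0.21 ± 0.06 and Chchd4 at 0.13 ± 0.05 were higher, and Nubpl at -0.29 ± 0.09 was lower.

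Of 38 tested subunits of complexes II to V, which include ATP synthase, 7 rose with the inhibitor (18.4%) and 0 fell, against 0.766% and 0.429% of all genes, and DESeq2 called 8 higher and 0 lower. At an unadjusted p under 0.05, 17 were higher and 0 lower. Among all genes with transcripts shorter than 939.5 bases, 6.48% rose with the inhibitor, against 0.304% of the longer ones. The part of transcript length and of single libraries was not tested for this list. The first 4 by p were Atp5k of ATP synthase, from 198 ± 24.9 to 256 ± 14.2 CPM (log2 0.37 ± 0.07, adjusted p = 0.00498), Cox7b of cytochrome c oxidase (0.29 ± 0.05, adjusted p = 0.00598), and Atp5e and Atp5j of ATP synthase (0.28 ± 0.05 and 0.25 ± 0.05, adjusted p = 0.00656 and 0.0192).

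With age, 7 of the 38 rose (18.4%) and 10 fell (26.3%), against 19.6% and 19.8% of all genes. The first 4 by p were the catalytic subunits Atp5a1 (490 ± 18.2 to 622 ± 8.68 CPM, log2 0.34 ± 0.04) and Atp5b (log2 0.26 ± 0.04) of ATP synthase and the large subunit Uqcrc2 of complex III (log2 0.26 ± 0.04), all higher, and the small complex III subunit Uqcrq (log2 -0.28 ± 0.05, adjusted p = 0.00016), lower. Treated old HSC had 13 of them higher than young HSC (34.2%) and 2 lower (5.26%), against 19.1% and 18.5% of all genes, led by Atp5a1 (log2 0.35 ± 0.04), Atp5b (0.26 ± 0.04), Uqcrc2 (0.27 ± 0.04) and Uqcrq (-0.28 ± 0.05).

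Of 12 genes for enzymes that feed electrons to ubiquinone, 4 rose (33.3%) and 1 fell (8.33%) with age, against 19.6% and 19.8% of all genes. The share called in either direction, 41.7%, was close to the 39.4% of all genes. Gpd2, the glycerol phosphate dehydrogenase of the inner membrane, went from 40.8 ± 1.17 to 57.6 ± 0.748 CPM (log2 0.50 ± 0.06) and Sqor, the sulfide oxidase, from 23.1 ± 1.48 to 32.6 ± 1.09 CPM (log2 0.50 ± 0.07). Sdhd of complex II rose at log2 0.15 ± 0.04 (adjusted p = 0.00862), while Sdhb, its iron-sulfur subunit, fell at log2 -0.24 ± 0.05 (adjusted p = 0.000341). With the inhibitor 0 of 12 passed by edgeR or DESeq2, against 1.19% of all genes by edgeR, and 1 was higher at an unadjusted p under 0.05. Against young HSC, treated old HSC had 5 higher (41.7%) and 1 lower (8.33%), against 19.1% and 18.5% of all genes. Gpd2 and Sqor were at log2 0.51 ± 0.06 and 0.51 ± 0.07, Prodh, the proline dehydrogenase, at 0.23 ± 0.07 and Sdhb at -0.175 ± 0.05.

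Of 18 genes for iron-sulfur cluster assembly, on which the matrix arm depends, 4 rose (22.2%) and 6 fell (33.3%) with age, against 19.6% and 19.8% of all genes. Nfu1, a late cluster carrier, was higher at log2 0.38 ± 0.04 and the chaperone Hspa9 at 0.32 ± 0.05. The co-chaperone Hscb and Bola3 were lower at -0.38 ± 0.08 and -0.24 ± 0.05 (adjusted p = 0.000643 and 0.0011). With the inhibitor 0 of 18 passed by edgeR or DESeq2, against 1.19% of all genes by edgeR, and 0 passed an unadjusted p of 0.05. Treated old HSC had 4 higher (22.2%) and 5 lower (27.8%) than young HSC, against 19.1% and 18.5% of all genes. The first 4 by p were Nfu1 (log2 0.37 ± 0.04), Hspa9 (0.33 ± 0.05), Hscb (-0.29 ± 0.08) and the scaffold Iscu (0.155 ± 0.05).

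Of 13 regulators of mitochondrial biogenesis, 2 rose and 2 fell with age, 15.4% in each direction against 19.6% and 19.8% of all genes. Gabpa, the ETS-family subunit of a factor for respiratory genes, was higher at log2 0.35 ± 0.09 (adjusted p = 0.00429) and Yy1 at 0.19 ± 0.07 (adjusted p = 0.0312). The coactivator Ppargc1b was lower, at 4.48 ± 0.226 CPM in young and 2.90 ± 0.14 in old HSC (log2 -0.62 ± 0.17, adjusted p = 0.00647), as was Gabpb2 at log2 -0.26 ± 0.07 (adjusted p = 0.00794). With the inhibitor 0 of 13 passed by edgeR or DESeq2, against 1.19% of all genes by edgeR, and 1 was lower at an unadjusted p under 0.05. Against young HSC, Gabpa (log2 0.33 ± 0.09) and Gabpb1 (0.18 ± 0.07) were higher in treated old HSC, and Gabpb2 (-0.24 ± 0.07) and Ppargc1b (-0.46 ± 0.17) lower.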

How the data were processed

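The authors deposited expected counts of reads per gene and library, with mm10 listed as the build, and 56.0% of the non-zero values are whole; what gave the fractions was not stated. The authors' tools, without role or order, were edgeR 3.24.3, HTSeq 0.10.0, STAR 2.6.1d and Trim Galore 0.6.2, per the submitters' processing notes, and nothing states that strand was counted. The counts were rounded and tested here with edgeR 4.0.16 in R 4.3.3: TMM normalization, filterByExpr (14227 genes kept), a quasi-likelihood fit of the 9 libraries by group, and Benjamini-Hochberg adjustment over all genes tested, with a threshold of 0.05. Levels are CPM from TMM-scaled library sizes. Library totals ran from 16663445 to 23254115 and the common biological coefficient of variation was 0.0583. PCR reads without molecular identifiers are not independent molecules. For shares of counts, exact two-sided permutation tests were used. The steps were tested on simulated data.

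Transcript lengths, coordinates, exon overlaps and shared 31-base words come from GENCODE mouse release M21 (GRCm38), with the shortest best-supported principal transcript of each gene; 48 of 50 members had the same symbol there. The values of 1 member are in the counts but are not reported here. Named are the other core subunits and assembly factors, other members past the threshold in at least 1 comparison, and members that were not tested, with the rest given by range. From the other lists, up to 4 of smallest p per list and comparison are named. Alternatives were RLE size factors, no filter, a stricter filter (5 CPM in 3 libraries), 2 groups alone, a replicate block, each library left out, a trend on GC and length removed, a fold threshold of 1.2 and DESeq2 1.42.0; leaving out mitochondrial genome or sex chromosome genes was added after seeing the data. The members and lists were chosen with earlier results of these data known. Promoter windows on chromosome 18 were not used here. Python 3.11.15, pandas 2.3.3, scipy 1.17.1 and matplotlib 3.10.9 were used.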

Additional observations from a re-analysis of the deposited data

How the results depend on the processing

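Counts of Nduf genes past the threshold depended on the filter and on single libraries, and the cause was not tested. Leaving out each library in turn gave 4 to 8 rises and 0 to 12 falls for old against young HSC, against 2522 to 3005 and 2155 to 2816 over all genes. It gave 0 to 9 rises and 0 falls for treated against untreated old HSC, against 17 to 175 and 31 to 111. For treated old against young HSC it gave 7 to 14 rises and 0 to 2 falls, against 2371 to 2962 and 2054 to 2683. With no filter on low counts, old against young had 8 rises and 8 falls, against 3409 and 2806 of 22496 genes over all. In that fit treated against untreated old had 11 rises, against 219. Treated old against young had 16 rises and 0 falls, against 3444 and 2639. With the stricter filter, which kept 46 members, old against young had 22 falls, against 1980 of 9670 genes over all. Treated against untreated old then had 3 rises, against 89, and treated old against young 5 falls, against 1732. Fitting the 2 groups alone gave 8 rises with the inhibitor, against 164 of 13147 genes over all. Removing the trend on GC and length gave 24 falls with age, 3 rises with the inhibitor, and 15 falls for treated old against young. Over all 14227 genes the same counts were 3039, 130 and 2932. A fold threshold of 1.2 left 0 rises and 0 falls with age, against 898 and 1347 over all genes, and 0 rises with the inhibitor, against 2. For treated old against young it left 1 rise (Ndufv3) and 0 falls, against 801 and 1386. DESeq2 called 1 member lower in treated old than in young HSC, against 2154 of all genes. The share of counts in Nduf genes differed by -0.0345 percentage points between treated old and young HSC and by 0.0418 on TMM-scaled library sizes, with exact permutation p-values of 0.4 and 0.3. No member called in the reported fit changed sign under an alternative. Among uncalled values signs changed in 48 of 529, 14 of 795 and 75 of 700 in the 3 comparisons, and 6 of the last, with the GC and length trend removed, were then called (Ndufb8, Ndufa1, Ndufa2, Ndufs5, Ndufb4c and Ndufb2). Residual correlations ran from -0.08076 to 0.1317 for same-numbered libraries of different groups and from -0.09637 to 0.0723 for the others. Between young and old, the same-numbered values were 0.0628, 0.1317 and 0.06358, and the highest of the others was 0.03511. Same-numbered pairs with a treated library ran from -0.08076 to -0.02049. Whether the replicate numbers pair the libraries was not tested further. With the replicate block the calls were 6 rises and 13 falls, 6 rises and 0 falls, and 10 rises and 2 falls. Over all genes they were 2799 and 2783, 128 and 67, and 2777 and 2578. At these depths the subunits had many counts, and the 3 libraries a group and the spread between them limit what can be called.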
